A study of Papio anubis and Macaca mulatta with 6 samples.

Results

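Cytosolic ribosomal protein genes were followed through the cells of the immature testis of 2 baboons (Papio anubis) and 2 rhesus monkeys (Macaca mulatta). Members were all listed genes with a ribosomal protein symbol, that is RPL or RPS followed by a number, together with RPLP0, RPLP1, RPLP2 and RPSA, and without the RPS6K kinases. In the baboon 77 of 34178 listed genes were members (46 of the large subunit, 28 of the small subunit and 3 of the stalk). In the rhesus monkey the members were 71 of 21356 listed genes (42, 27 and 2), with RPL31 and RPS24 listed as 2 genes each. Some ribosomal proteins were not analysed here, among them RPL35A, RPL36A, RPS3A, RPS6, RPS15, RPS15A and RPS4Y2 in the baboon, and RPL11, RPL21, RPL29, RPL34, RPL36A, RPL39L, RPLP0, RPS6, RPS10, RPS18, RPS19, RPS25 and RPS27 in the rhesus monkey.

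The paper names no treatment of the 4 animals, which had been euthanized for another purpose. Their testes were taken at necropsy and digested in 2 enzymatic steps, with a wash between them meant to remove interstitial cells. From baboon 1 came the libraries 1A and 1B, from rhesus monkey 2 the libraries 2A and 2B, and from each of the other animals a single library. Baboon 2 was run on version 3 of the droplet chemistry (10x Genomics, 3′ ends) and the others on version 2, so chemistry and animal cannot be told apart in the baboon. The 2 animals of a species also differed in age. The sources give conflicting ages for the species, so age was not used, and it cannot be told apart from the animal. Unique molecular identifiers (UMIs) mark single captured transcripts. The 6 libraries held between 16875294 and 49803025 UMIs, with a median of 1445 to 2740 UMIs per cell. There were 23070 baboon and 26477 rhesus cells. Classes of cells were rebuilt from clusters and marker genes, with the members left out of the genes that made the clusters, and each name ends in "-like". Barcodes found in both of a pair of libraries numbered 109 for 2A and 2B, where 79.4 were expected by chance, and 66 for 1A and 1B, where 72.3 were expected. Levels are in CPM, the UMIs of a gene scaled to a common total of all UMIs of its class and animal, and not divided by gene length, since 1 UMI stands for 1 transcript of any length. With sums per animal, n was 2 animals for each species. Intervals cover counting error only.

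Each cytosolic ribosome holds 1 copy of most of its proteins, which are built into the large and the small subunit around the ribosomal RNAs. The stalk, made of RPLP0, RPLP1 and RPLP2, recruits the elongation factors. The messenger RNAs of most ribosomal proteins begin with a C and a run of pyrimidines, the 5′ terminal oligopyrimidine motif, through which growth signals set their translation. A few ribosomal proteins have paralogues that are known from testis, such as RPL10L, an intronless copy of the X-linked RPL10, and RPL39L, a relative of the X-linked RPL39. RPSA is the small subunit protein that is also known as a laminin receptor precursor.

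The transcript starts of members with large changes in germ-like cells, with and without the motif, are shown because the motif played no part in the choice of the members. The windows cover 15 bases before and 15 bases from the annotated start in rhesus RefSeq (Mmul_10), 5′ to 3′ on the gene's strand, and capitals mark the run of C and T from the first transcribed base where it began with a C and at least 4 more pyrimidines.
RPL10 (chrX:150319615-150319644, plus strand): caggcgtgggagcgcCCCTTTCCCTTCggc
RPL39 (chrX:116077092-116077121, minus strand): ccgcctgcttcccccCTCTTTTCCTTTCTC
RPL23 (chr16:49928534-49928563, minus strand): cgtcctttgaatcaaCTTCCTTTTTTCTTT
RPL27A (chr14:56992386-56992415, minus strand): cgtgcccgatacctcgcgagacttggcgaa
RPS12 (chr4:36365874-36365903, plus strand): gcgggctgatgaggcCTCTTTCCCTgccgc
RPSA (chr2:94850922-94850951, plus strand): ctcctttccgcgctacctacagaagggtcc
RPL26L1 (chr6:170368861-170368890, plus strand): acggaaactcatttccggtcctgcgcactc
RPL10L (chr7:108866384-108866413, minus strand): tacggttccagcgcgggacgacgggcaacg
A C followed by 4 bases that are each C or T, on the transcribed strand only, stood at the annotated start of 18 of the 68 members with a transcript (26.5%) and of 615 of 21122 protein-coding genes (2.91%). None of the 8 paralogue members had it, against 30% of the other members. It stood at 9 of 18 members that were lower in rhesus germ-like cells and at 1 of 6 that were higher. The 6 include the paralogue members RPL26L1 and RPS4Y2, and the lower ones include RPS4Y1. Whether the motif goes with the direction was not tested. Among the lists of other genes it stood at 14.3% of translation elongation factors and partners, 12% of initiation factors, 2.56% of ribosome biogenesis factors and 2.99% of mitochondrial ribosomal proteins. The annotated start can lie a few bases away from the one used in these cells, and a missing match says only that these letters were not at that position.

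The first 60 coding bases of paralogues that were higher in germ-like cells are shown beside their counterparts to show how close the copies are. They are from rhesus RefSeq (Mmul_10), with the bases that differ within a pair in capitals.
RPL10L: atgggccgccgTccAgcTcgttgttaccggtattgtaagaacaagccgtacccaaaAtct
RPL10: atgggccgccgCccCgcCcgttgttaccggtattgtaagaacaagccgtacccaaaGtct
RPL26L1: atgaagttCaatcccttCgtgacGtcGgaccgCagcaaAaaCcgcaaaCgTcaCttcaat
RPL26: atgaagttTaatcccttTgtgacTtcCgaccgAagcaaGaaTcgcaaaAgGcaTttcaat
RPL10L has 1 exon (chr7:108864788-108866398) and RPL10 has 7 (chrX:150319630-150322228). Their coding sequences of 642 bases were 88.9% identical, with 71 different bases and no shared run longer than 38 bases. RPL26L1 (chr6:170368876-170377394, 4 exons) and RPL26 (chr16:8157665-8164484, 4 exons) were 84.8% identical over 435 bases, and their longest shared run was 20 bases. Reads of other near-identical copies, such as processed pseudogenes without a ribosomal protein symbol, were not counted for a member, so the level of a member can be understated and differ between the annotations of the 2 species.

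The members took 22.9% of all UMIs in baboon cells (18200324 of 79432124) and 26.3% in rhesus cells (12832297 of 48877581), although they were 0.225% and 0.332% of the genes. No small group of members dominated, since the 5 highest took 15.3% (baboon) and 14.8% (rhesus) of the members' UMIs. These 5 were RPS18, RPS29, RPL23, RPL34 and RPL38 in the baboon and RPL13A, RPL10, RPL23A, RPLP1 and RPL37 in the rhesus monkey. At the other end, baboon RPS16 had 797 UMIs and RPS4X, which the baboon annotation places on chromosome 4, had 129.

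Among the classes, Leydig-like cells of the rhesus monkey had the highest share of ribosomal protein UMIs. The share was 34.6% in rhesus monkey 1 and 36.2% in rhesus monkey 2 (35.4% ± 1.16, SD, n = 2), with 36.4% and 36.1% in the libraries 2A and 2B, above every other named class of either animal. Leydig cells make androgens, and INSL3 and CYP17A1 led this cluster. Rhesus stroma-like cells followed at 27.2% ± 1.41, pericyte-like cells at 25.7% ± 0.176, endothelial-like cells at 24.9% ± 0.418, macrophage-like cells at 24.2% ± 1.17 and germ-like cells at 23.6% ± 0.744. Sertoli-like and peritubular myoid-like cells had means of 23.3%. The germ-like share lay between 21.1% in library 2B and 24.7% in library 2A. In the baboon the order was Sertoli-like 23.6% ± 4.64, macrophage-like 23.5% ± 3.92, stroma-like 21.7% ± 4.19, pericyte/peritubular myoid-like 20.5% ± 4.28, germ-like 20.4% ± 1.95 and endothelial-like 18.9% ± 4.18. With 2 animals an exact permutation test of 2 classes cannot go below p = 0.333, so these shares were described and not tested. Baboon 2 lay below baboon 1 in each class, and within each animal the endothelial-like share (21.9% and 16%) lay below the Sertoli-like share (26.9% and 20.3%). The RNA free in droplets without cells held 24.6% to 31.1% of such UMIs, a level that lies above most classes.

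**Figure D1:**
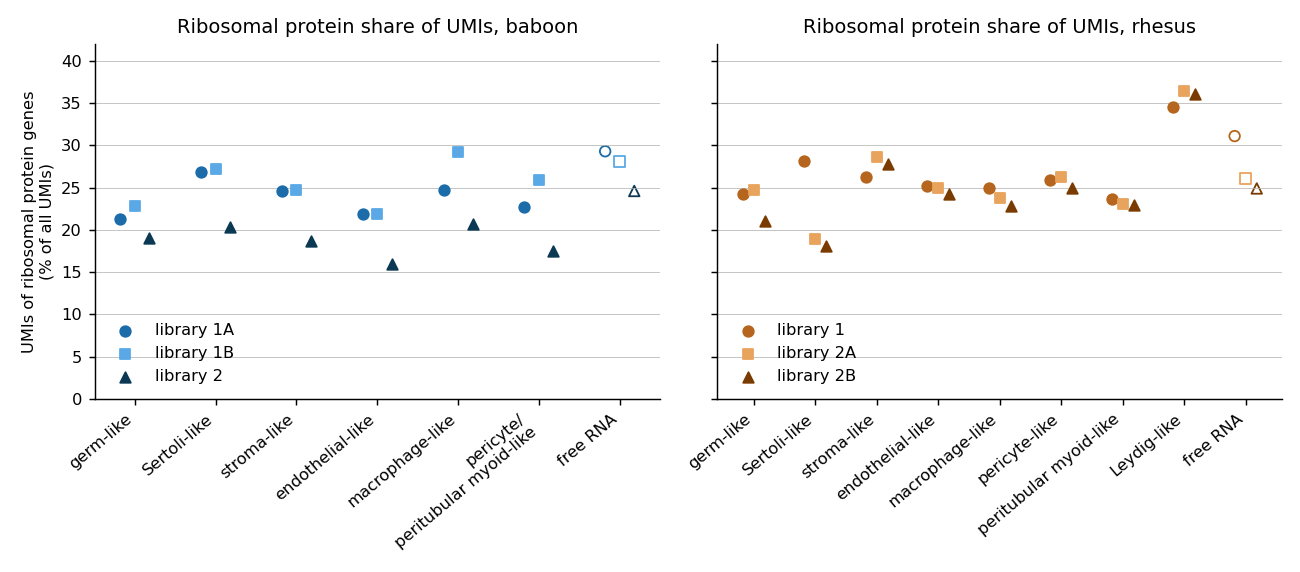
Share of UMIs from ribosomal protein genes (percent of all UMIs, vertical axis from 0) for each class and library in the baboon (left) and the rhesus monkey (right). Filled points are cells of 1 library and open points the free RNA of the same library. Leydig-like cells of the 3 rhesus libraries sit between 34.6% and 36.4%, and the baboon 2 library lies below 1A and 1B in every class.

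The rhesus Sertoli-like share differed most between animals that were made with the same chemistry. Sertoli cells nurse the germ cells and make AMH. Their share was 28.1% in rhesus monkey 1 and 18.5% in rhesus monkey 2 (18.9% in 2A and 18.1% in 2B), and both of the large Sertoli-like clusters showed the gap, at 33.2% against 23.3% and 22.2% against 15.7%. The stroma-like share went the other way, at 26.2% and 28.2%. Single cells also spread far beyond counting. In the Sertoli-like cells of library 1A the SD over cells was 8.36 percentage points where counting alone gave 1.06, and in rhesus monkey 1 it was 6.38 where counting gave 1.15.

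Among the baboon Sertoli-like clusters 1 had the highest share in both animals. Cluster 2 held 2960 cells of baboon 1 and 259 of baboon 2, with shares of 38.5% and 23.1%, while the other 6 Sertoli-like clusters lay between 20.2% and 28.3% in baboon 1. Over all Sertoli-like cells, not split by cluster, those above 40% numbered 646 in library 1A, 422 in 1B and 0 in baboon 2. RPL31, RPS20, RPL23A, RPL27A and RPL13A were among the 10 leading genes of cluster 2, and no member had been used to make the clusters. These genes were ranked over both animals pooled. All were lower in baboon 2, with log2 ratios from -4.28 (RPL31) to -2.43 (RPL13A) in Sertoli-like cells. Since baboon 1 gave most cells of the cluster, their rank cannot be told apart from the animal. RPL31, a large subunit protein, stood at 3565 CPM in cluster 2 of baboon 1 and at 1644 to 2379 in the other Sertoli-like clusters of that animal, and RPS20, a small subunit protein, at 7059 against 3398 to 4912. In baboon 2 the same cluster had 106 of RPL31 and 393 of RPS20, no higher than its other Sertoli-like clusters, which reached 147 and 434. Its RPL23A, at 871, was also below the highest of these clusters (896). RPL27A at 763 and RPL13A at 1655 were above all of them, where the others reached 668 and 1489. Mean UMIs per cell in cluster 2 were 1994 in baboon 1, within the range of the other clusters (1887 to 3098).

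**Figure D2:**
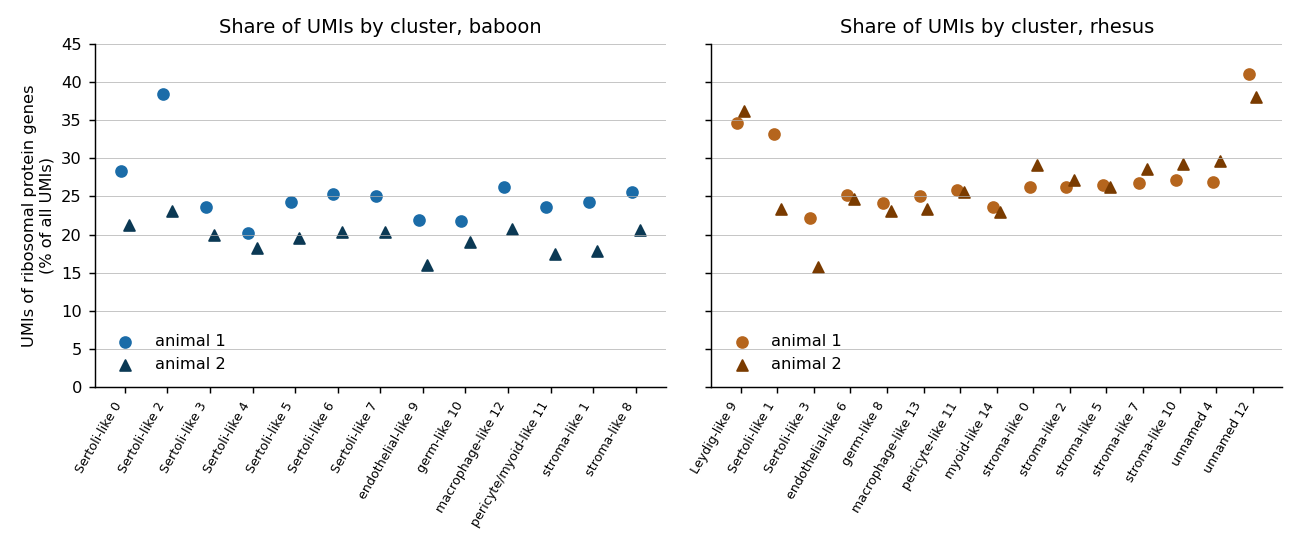
Share of UMIs from ribosomal protein genes (percent, vertical axis from 0) for each cluster with at least 20 cells in each animal, sorted by class. Circles are animal 1 and triangles animal 2. Baboon cluster 2 (38.5% in animal 1) and rhesus clusters 9 and 12 stand above the others.

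The subunits were not in fixed proportion across classes. In baboon germ-like cells 45.7% ± 0.152 of the members' UMIs were of the large subunit, 47.4% ± 0.486 of the small subunit and 6.86% ± 0.638 of the stalk. In the other 5 baboon classes the large subunit took 51.2% to 53.2% and the stalk 4.76% to 5.6%. Rhesus germ-like cells also had the lowest large subunit part, 49.5% in rhesus monkey 1 and 55.8% in rhesus monkey 2, where the other named classes had means of 57.8% to 61.1%. The rhesus stalk, without RPLP0, took 4.98% ± 1.2 in germ-like cells, within the range of the other classes.

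Germ-like cells were compared with the mean of the somatic classes by the quasi-likelihood test of edgeR on sums per animal. In the baboon 19 of 75 members tested passed an adjusted p of 0.05 (25.3%), where 33.6% of all genes did. Of these, 6 were higher, where 23.9% of all genes were called higher, and 13 were lower, where 9.66% of all genes were called lower. The higher calls included RPL39L and RPL10L, which passed the filter on low counts through their germ-like levels. Of the rhesus members 25 of 68 passed (36.8%, against 36.3% of all genes), 6 of them higher (24% of all genes) and 19 lower (12.3% of all genes). The share of members called was thus near or under that of all genes, while the calls were mostly of lower level. The median log2 fold change of the members was -0.43 against 0.26 for all genes in the baboon and -0.41 against 0.16 in the rhesus monkey. The split of calls depended on the scaling. With library sizes alone, with the UMIs of other genes and with the UMIs of the members as the scale, the baboon calls were 9 higher and 6 lower, 8 and 6, and 10 and 4, and the median of the members stayed negative at -0.22, -0.24 and -0.13. The medians of all genes were then 0.48, 0.46 and 0.54. For the rhesus members the same last scale gave 13 higher and 17 lower, with medians of -0.06 for the members and 0.47 for all genes. The shares of all genes called under these scales are not given here. With the animal as a block, since classes of 1 animal share that animal, the baboon calls rose to 56 (13 higher and 43 lower), where 45.8% of all genes passed.

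Of the 61 members tested in both species, 52 had the same sign, 11 of them positive and 41 negative. For RPS24 this count used the rhesus gene with 1442 UMIs (0.10 ± 0.79), which differed in sign from the baboon (-0.23 ± 0.23). The other rhesus RPS24 gene, with 201950 UMIs, had -0.07 ± 0.30. The 10 members called in both went the same way in both. They were 52.6% of the 19 baboon calls and 40% of the 25 rhesus calls. Of those calls, 13 and 22 were of members tested in the other species as well. The same counts over all genes are not given here, so the members cannot be set against them. RPSA, RPS12 and RPL26L1 were higher, and RPL10, RPL22, RPL23, RPL30, RPL37, RPS23 and RPS26 were lower. The annotations differ between the species, so the counts and not the levels can be set side by side.

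**Figure D3:**
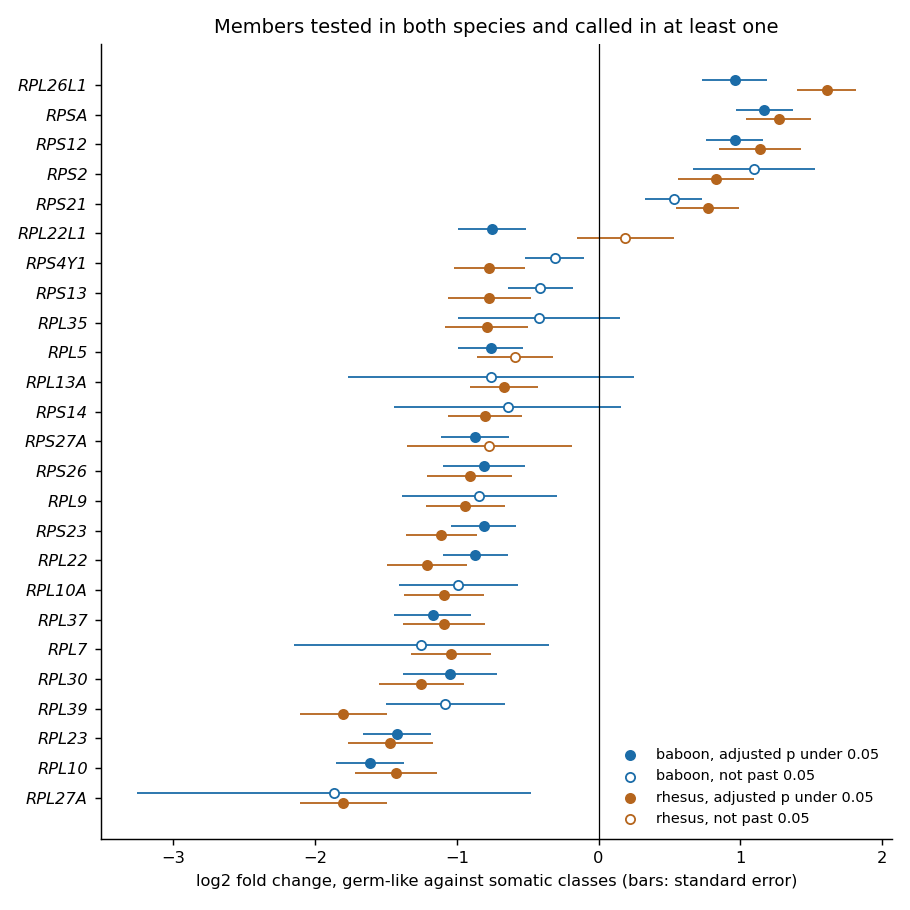
Log2 fold change of germ-like cells against the mean of the somatic classes for the members tested in both species and past an adjusted p of 0.05 in at least 1 (edgeR quasi-likelihood test). Points are estimates, bars 1 standard error on either side, and open points did not pass. RPSA (1.17 and 1.27) and RPL10 (-1.61 and -1.43) are alike in the 2 species. RPL22L1 lies below 0 in the baboon and above 0, not past the threshold, in the rhesus monkey.

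The stalk was represented by RPLP0, the protein that anchors it, only in the baboon. RPLP0 stood at 5385 CPM in the germ-like cells of baboon 1 and at 4724 in those of baboon 2. The 10 sums of somatic cells ran from 2065 through a median of 2323 to 3158, so the groups did not overlap. The log2 fold change was 0.86 ± 0.20 (standard error, adjusted p = 0.00583 by edgeR). RPLP1 and RPLP2, the acidic stalk proteins, did not pass in either species, with log2 fold changes of -0.40 ± 0.26 and 0.24 ± 0.67 in the baboon, and -0.49 ± 0.29 and 0.20 ± 0.26 in rhesus cells. With the animal as a block both passed in the baboon, RPLP1 at -0.39 (edgeR adjusted p = 0.0144) and RPLP2 at 0.38 (adjusted p = 0.0299), while the sign of RPLP2 changed under other alternatives.

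Among small subunit members RPSA and RPS12 were higher in germ-like cells of both species. RPSA stood at 8042 and 7354 CPM in baboon germ-like cells, with 8041 in library 1A and 8043 in 1B, and at 2332 to 3700 in the somatic sums (median 2925). Its log2 fold change was 1.17 ± 0.20 (edgeR adjusted p = 0.000802). Rhesus germ-like cells had 7915 and 7777, with 8725 in 2A and 6526 in 2B, and at 1697 to 5030 in the 14 somatic sums (median 2726), a change of 1.27 ± 0.23 (adjusted p = 0.000745). The highest of the somatic values was that of Leydig-like cells. In neither species did the germ-like values overlap with the somatic ones.

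RPS12, a protein of the small subunit, showed the same order with more spread in the rhesus monkey. It stood at 12083 and 11144 in baboon germ-like cells and at 4147 to 5578 elsewhere (0.96 ± 0.20, edgeR adjusted p = 0.00325). In rhesus germ-like cells it stood at 18972 in rhesus monkey 1 and 9446 in rhesus monkey 2, and at 3235 to 8703 in the tested somatic classes (1.14 ± 0.29, adjusted p = 0.00711). An unnamed rhesus cluster of 245 cells, which was not tested, had 10470 and 9472. Free RNA held 3860 to 7724 CPM of RPS12 and 1966 to 4227 of RPSA, below the germ-like sum of every animal. Single clusters of germ-like cells were not all above it. A cluster of baboon 1 had 2605 (RPS12) and 1499 (RPSA), and a cluster of rhesus monkey 2 had 4609 and 2432. RPS2, a core protein of the small subunit, was called in the rhesus monkey (6452 and 8249 against 1673 to 7347, 0.83 ± 0.27, adjusted p = 0.0295) and had 1.10 ± 0.43 in the baboon, where it did not pass (adjusted p = 0.0705). RPS21 was called in the rhesus monkey too (0.77 ± 0.22, adjusted p = 0.0125), with 0.53 ± 0.20 in the baboon (adjusted p = 0.0586). With the animal as a block the baboon values of RPS2 and RPS21 passed (edgeR adjusted p = 2.67e-05 and 0.000913).

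Other small subunit members were lower. RPS23, which lies at the decoding centre, was at 2533 and 3766 against 3905 to 5795 in the baboon (-0.81 ± 0.23, adjusted p = 0.0185) and at 2801 and 2687 against 3284 to 6351 in the rhesus monkey (-1.11 ± 0.25, adjusted p = 0.0035). RPS26 was called in both as well, at -0.81 ± 0.29 and -0.91 ± 0.30. Its highest germ-like value in the baboon, 2691, overlapped with the lowest somatic value of 2677.

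Large subunit members were 9 of the 13 lower calls in the baboon and 13 of 19 in the rhesus monkey, near their part of the members tested (45 of 75 and 39 of 68). RPL10, an X-linked protein that joins the large subunit late in its assembly, stood at 1994 and 2364 CPM in baboon germ-like cells. Its somatic sums ran from 4123 to 6927 (median 6236), and the log2 fold change was -1.61 ± 0.24 (edgeR adjusted p = 0.000374). In rhesus germ-like cells it stood at 3659 and 3810 against 4468 to 12777 (median 9026), for -1.43 ± 0.29 (adjusted p = 0.00168). All 3 germ-like values of the baboon libraries (1910, 2151 and 2364) and of the rhesus libraries (3659, 3934 and 3646) were below every somatic sum of their species. The lowest somatic values were those of Sertoli-like cells in both species. Among these cells, rhesus cluster 3 (3471 cells) stood at 4569 in rhesus monkey 1 and at 3694 in rhesus monkey 2. The latter value lay within the range of the rhesus germ-like values, so not every somatic cluster was above them.

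RPL23, a protein of the large subunit that takes part in the MDM2 and p53 pathway when free, stood at 2130 and 3112 in baboon germ-like cells against 4452 to 7623, and at 1214 and 1021 in rhesus germ-like cells against 2043 to 3654. The log2 fold changes were -1.42 ± 0.24 (edgeR adjusted p = 0.000918) and -1.47 ± 0.30 (adjusted p = 0.00186), and the groups did not overlap in either species. RPL30 had -1.05 ± 0.33 and -1.25 ± 0.30, RPL37 had -1.17 ± 0.27 and -1.09 ± 0.29, and RPL22 had -0.87 ± 0.23 and -1.21 ± 0.28. Of these, RPL22 did not overlap with the somatic classes in either species. RPL37 overlapped in the rhesus monkey, where rhesus monkey 2 stood at 4340 and the lowest somatic sum at 3326. RPL30 overlapped in the baboon, where baboon 2 stood at 2566 and the lowest somatic sum at 2242.

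The largest falls in the rhesus monkey were those of RPL39 and RPL27A, both of -1.80 ± 0.31. RPL39, a very small protein of the large subunit, stood at 1544 and 1203 in germ-like cells against 2754 to 6218 (edgeR adjusted p = 0.000453). RPL27A stood at 2239 and 1753 against 4336 to 7878 (adjusted p = 0.000502). In the baboon neither passed in the test as reported, while RPL39 passed under 6 and RPL27A under 2 of 17 alternatives, the animal as a block among them. RPL27A was at 1562 and 333 in germ-like cells there, and its somatic sums ran from 390 to 6223, with 4727 to 6223 in baboon 1 and 390 to 656 in baboon 2. It was thus below the somatic classes within each animal. The log2 fold change was -1.87 ± 1.39 (edgeR adjusted p = 0.338), and with the animal as a block it was -1.39 and passed (adjusted p = 5.06e-05). RPL39 had -1.08 ± 0.42 at a low level, with 27 and 146 UMIs in the germ-like cells (adjusted p = 0.0691), and passed with the block (edgeR adjusted p = 0.00199).

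The paralogues RPL39L and RPL10L were found almost only in germ-like cells. RPL39L, tested only in the baboon, stood at 249 and 234 CPM in germ-like cells, with 653 UMIs, and at 0 to 11.3 in the somatic sums, with 100 UMIs in all of the somatic cells. The ratio of the pooled levels was 184 (95% interval 149 to 230) and the log2 fold change 7.72 ± 0.39 (edgeR adjusted p = 9.53e-07). RPL39L passed the filter on low counts through its germ-like levels, so this p-value adds no support. Of the UMIs of RPL39L and RPL39 together, RPL39L made up 91% (95% exact interval 87.1% to 94%) in the germ-like cells of baboon 1 and 72.3% (68.3% to 76.1%) in those of baboon 2. In Sertoli-like cells it made up 1.12% and 1.09%. The somatic median of RPL39 was 93.7 CPM in the baboon, where it was 4238 in the rhesus monkey. These percentages thus depend on how many RPL39 reads the baboon annotation counts under that symbol, which was not tested. Free RNA held 10, 1 and 1 UMIs of RPL39L in the 3 baboon libraries, or 3.61 to 6.05 CPM.

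RPL10L had 46 UMIs in baboon germ-like cells (16.5 and 17.2 CPM) and 4 in all somatic cells, and 31 in rhesus germ-like cells (17.6 and 11.9 CPM) and 4 in all somatic cells of the tested classes. The pooled ratios were 324 (95% interval 118 to 1240) in the baboon and 168 (59.2 to 653) in the rhesus monkey. The baboon log2 fold change was 9.21 ± 1.21 (edgeR adjusted p = 0.000808), and in the rhesus monkey the gene did not pass the filter on low counts. In the baboon RPL10L passed this filter through its germ-like levels, with at most 0.115 CPM in the somatic sums. Its p-value therefore adds no support. In spite of the ratio it made up only 0.82% and 0.722% of the UMIs of the pair with RPL10 in baboon germ-like cells, and 0.479% and 0.312% in rhesus germ-like cells. RPL3L, a muscle paralogue of RPL3, had 9 germ-like and 1 somatic UMI in the baboon (ratio 254, 95% interval 35.2 to 11123) and 2 and 0 in the rhesus monkey, and was not tested.

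RPL26L1, a close copy of RPL26, was present in every class and highest in germ-like cells. In the baboon it stood at 95.2 and 92.7 against 16.9 to 67.5 (0.96 ± 0.23, edgeR adjusted p = 0.00674) and in the rhesus monkey at 224 and 215 against 29.3 to 106 (1.61 ± 0.21, adjusted p = 6.94e-05), without overlap in either. As a part of the pair with RPL26 it was 24.9% and 35.5% in baboon germ-like cells, against 15.6% and 17.8% in Sertoli-like cells. For rhesus cells the parts were 8.16% and 8.65% (germ-like), against 2.48% and 4.85% (Sertoli-like). RPL26 had a somatic median of 260 CPM in baboon sums, far under the rhesus value of 3632. The baboon percentages therefore rest on how many reads that annotation assigns to RPL26, which was not tested. RPL22L1, the paralogue of RPL22, did not follow. It was called lower in baboon germ-like cells (-0.75 ± 0.24, adjusted p = 0.029) and had 0.19 ± 0.34 in the rhesus monkey, where it stood at 412 in rhesus monkey 1 and 1252 in rhesus monkey 2. RPL7L1 and RPS27L did not pass in either species, with log2 fold changes between -0.57 and -0.36. With the animal as a block RPS27L passed in both (edgeR adjusted p = 0.0379 in the baboon and 0.0378 in rhesus cells).

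**Figure D4:**
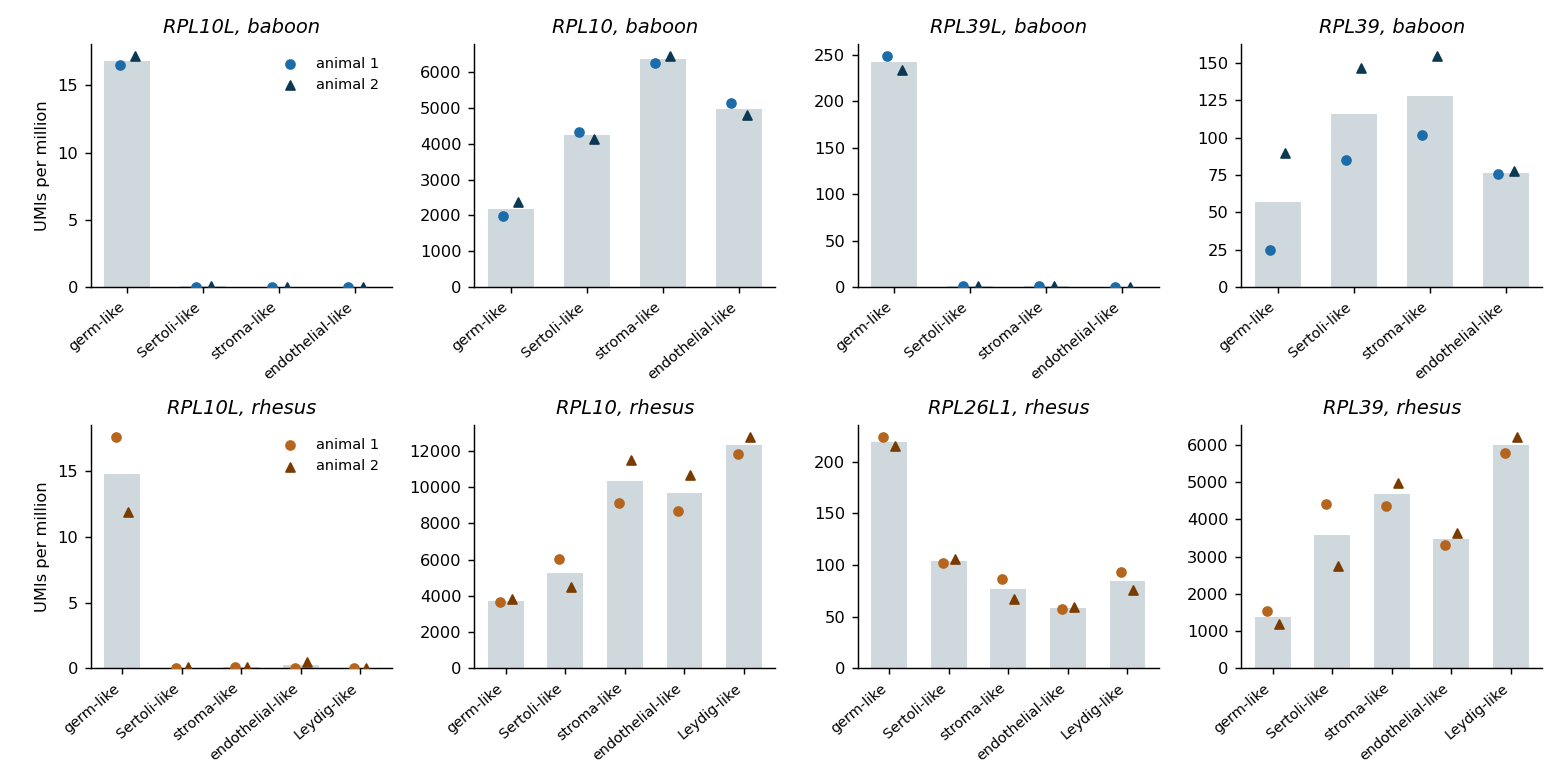
Levels of paralogues and counterparts (CPM of UMIs, each vertical axis from 0 and of its own range) in germ-like and the larger somatic classes of the baboon (top) and the rhesus monkey (bottom). Bars are means of 2 animals, circles animal 1 and triangles animal 2. RPL10L and RPL39L stand near 0 outside germ-like cells, while RPL10 is lowest in germ-like cells of both species (2179 and 3734 on average).

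The Y-linked members could be compared with their X-linked counterpart RPS4X only in the rhesus monkey. RPS4Y2 stood at 463 and 457 in rhesus germ-like cells against 151 to 352 (0.87 ± 0.20, edgeR adjusted p = 0.00402), and RPS4Y1 at 934 and 1060 against 1101 to 2405 (-0.77 ± 0.25, adjusted p = 0.0293). Thus the 2 Y-linked genes went in opposite directions, while RPS4X had -0.37 ± 0.27 (adjusted p = 0.303). RPS4Y1 and RPS4Y2 share a run of 179 coding bases, and reads that fall within it cannot be told apart. In the baboon RPS4Y1 stood at 1228 and 1260, within the somatic range of 1066 to 1799.

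Markers of other classes were also found in the germ-like sums. In the baboon the 14 germ markers that were found summed to 2158 and 1830 CPM, where Sertoli-like cells had 129 and 173, and the 12 Sertoli markers summed to 1069 and 2777, where Sertoli-like cells had 8099 and 8955 (1 of the 12 was at 0). Rhesus germ-like cells had 13 germ markers that summed to 798 and 646, with 1 at 0, and 11 Sertoli markers to 843 and 615, with none at 0. The Leydig markers there summed to 523 and 574 (1 of 6 at 0) and the stroma markers to 504 and 274 (0 of 10 at 0). Germ cell clusters in which the Sertoli markers exceeded the germ markers in both animals were then left out. This kept 166 of 301 baboon and 307 of 614 rhesus germ-like cells. The calls of members were then 23 (8 higher and 15 lower) in the baboon and 27 (6 and 21) in the rhesus monkey. The share of all genes called with these cells is not given here.

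Outside the germ cells few members differed between classes. In Sertoli-like cells against the other somatic classes no baboon member passed (3 had an unadjusted p under 0.05, and DESeq2 called 7), where 16.9% of all genes passed. The largest changes there were 2.04 ± 3.23 for RPL10L and 1.15 ± 1.09 for RPS16. With the animal as a block 16 members passed, 13 of them higher, while the share of all genes under the block is not given here. Among rhesus members 2 were lower, where 13.4% of all genes passed and 4.7% were called lower. They were RPL10 (6030 and 4468 against 5988 to 12777 in the other somatic sums, -1.02 ± 0.29, edgeR adjusted p = 0.0278) and RPL24 (2653 and 1902 against 2898 to 5774, -0.91 ± 0.28, adjusted p = 0.0457). With the block the count was 5, and without library 2B it was 1, again without the share of all genes.

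In stroma-like cells no member passed in either species, where 9.32% of baboon and 2.97% of rhesus genes did. An unadjusted p under 0.05 was found for 1 baboon and 0 rhesus members, and DESeq2 called 1 and 0. With the block, 2 baboon members passed, RPL26L1 among them (0.75 ± 0.24, edgeR adjusted p = 0.0794 without the block and 0.0143 with it). The share of all genes that passed with the block is not given here. The largest rhesus changes were 0.62 ± 0.33 for RPL22L1 and -0.45 ± 0.40 for RPS15.

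In endothelial-like cells RPS28, a small protein of the small subunit, was the member called higher in both species, where 12% of baboon genes passed (10.1% higher) and 9.87% of rhesus genes (8.5% higher). It stood at 6995 and 7056 in the baboon against 3558 to 5016 in the other somatic sums (0.77 ± 0.20, edgeR adjusted p = 0.0247). Its rhesus levels were 7124 in library 1, 13776 in 2A and 12394 in 2B, and at no more than 7446 in another class (0.90 ± 0.26, adjusted p = 0.0371). The value of rhesus monkey 1 was thus not above all other classes. In that animal the lymphoid markers of this class summed to 3182 CPM and the endothelial markers to 2206. In rhesus monkey 2 they summed to 1.86 and 5226, so the class was mixed in 1 animal. RPS28 was no longer called without library 2A, and with the block the baboon count rose from 1 to 12, of which 10 were lower. The share of all genes called with the block is not given here for this class.

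Germ-like cells were also split into clusters made without the members. In each baboon cluster the share of members called was below that of all genes. The 4 baboon clusters are named g0 to g3, and each was set against the mean of the others. In g0, 1 of 73 members passed (6.4% of all genes), in g1 none (0.0232%), in g2 2 (8.92%) and in g3 10 (23.1%), of which 8 were lower (11.7% of all genes). In g1, 2 members had an unadjusted p under 0.05, and the changes of largest size were 0.85 ± 0.34 for RPL23 and 0.83 ± 0.76 for RPL27A. RPL39L was higher in g0 (260 and 297 CPM, 1.19 ± 0.31, edgeR adjusted p = 0.0366) and in g2 (275 and 313, 1.21 ± 0.31, adjusted p = 0.0296). It was lower in g3 (75 and 23.7, -2.86 ± 0.47, adjusted p = 0.000954), and in g1 it stood at 148 and 235. RPL22L1 was lower in g2 (157 in both animals, -1.42 ± 0.38, adjusted p = 0.0336) and higher in g3 (375 and 678, 1.03 ± 0.34, adjusted p = 0.0405). The means against which g0 and g2 were set included g3, whose label as germ-like went against its markers, as given below. How far g3 set the calls in g0 and g2 was not tested.

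In cluster g3 RPSA, RPS12 and RPLP0 lay within or below their somatic range, while RPL39L lay above its own. RPSA stood at 1499 and 2728 there and at 5752 to 9977 in the other clusters (-1.86 ± 0.41, edgeR adjusted p = 0.00586). RPS12 (-1.71 ± 0.41), RPLP0 (-1.57 ± 0.38), RPS2 (-1.57 ± 0.53), RPL12 and RPL13 were lower as well. The germ markers summed to 131 and 152 CPM in the 49 cells of g3, as in Sertoli-like cells, and the Sertoli markers to 4911 and 7400, so its label as germ-like went against its markers. At a finer resolution a cluster of 49 cells led by UBE2C and TOP2A, genes of dividing cells, was named Sertoli-like, and 252 cells were germ-like. Whether these are the cells of g3 was not tabulated. Over all 4 clusters 13 calls were made, and 39 with the animal as a block, for which the share of all genes is not given here. Without library 1A 2 calls were left and without 1B 0, each with 3 clusters that could be tested.

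The rhesus germ cell clusters that could be tested, g0, g1 and g3, had no member called of 66 (0%, 2% and 2.69% of all genes called). Clusters g2 and g4 had 7 and 8 cells of rhesus monkey 2 and were not tested. The fit held 2746 genes, where that of the baboon clusters held 8609, so the 2 species cannot be set against each other here. By an unadjusted p under 0.05, 0, 3 and 2 members were found. In g0 and g1 the Sertoli markers exceeded the germ markers in both animals. RPS12 lay between 14841 and 24199 in the 5 clusters of rhesus monkey 1 and between 4609 and 13430 in those of rhesus monkey 2. In the latter animal g0 (7746) and g1 (4609) lay within the somatic range of 3235 to 8703. The changes of largest size were 1.13 ± 0.46 for RPS27L and 1.07 ± 0.39 for RPL27A in g1, -1.12 ± 0.41 for RPL39 and -1.04 ± 0.42 for RPL27A in g3, and -0.36 ± 0.37 for RPS4Y2 and 0.27 ± 0.39 for RPL26L1 in g0.

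The 2 baboons differed strongly in the level of some members. In Sertoli-like cells 16 of 75 members were lower in baboon 2 by more than 1 on the log2 scale, and none was higher by that much, while the median over the members was -0.12. The differences included those of RPL31 (2316 and 119 CPM, -4.28), RPS20 (4702 and 392, -3.58), RPS16 at a low level (21.2 and 1.91, -3.48), RPL27A (6223 and 639, -3.28) and RPL23A (6234 and 749, -3.06). In stroma-like cells these were -4.35, -4.23, -2.53, -3.60 and -3.22, so the classes shared the difference. RPLP0 and RPSA, by contrast, differed little between the animals. Between the rhesus monkeys, made with 1 chemistry, 7 of 69 members were below -1 in Sertoli-like and 2 in stroma-like cells. How many of all genes differed by as much between the animals is not given here. These counts therefore do not set the members apart from other genes. In Sertoli-like cells the lowest was RPS15A (256 and 39.4, -2.70).

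**Figure D5:**
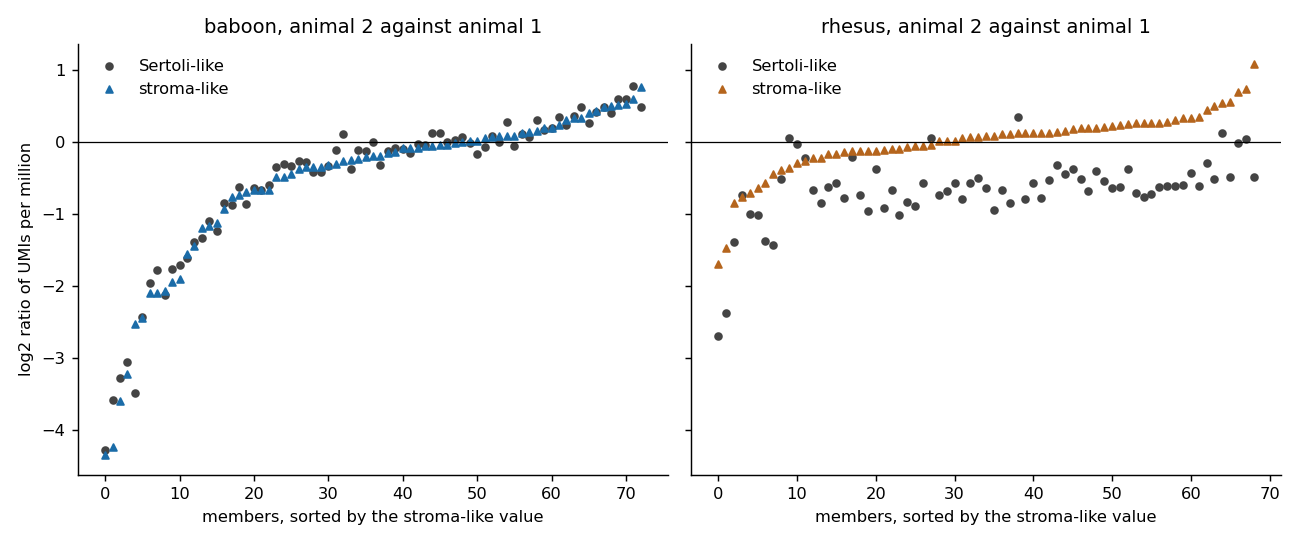
Log2 ratio of the level (CPM of UMIs) in animal 2 over animal 1 for each member with at least 10 UMIs, in Sertoli-like cells (circles) and stroma-like cells (triangles), sorted by the stroma-like value. In the baboon (left) both classes fall on 1 curve that reaches -4.35. In the rhesus monkey (right) Sertoli-like values lie lower, with a median of -0.62.

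Factors that build the ribosome were called higher more than lower in germ-like cells. Over all genes 23.9% were called higher and 9.66% lower in the baboon, and 24% and 12.3% in the rhesus monkey. Of 38 ribosome biogenesis factors tested, which make and process the ribosomal RNAs, 21 were higher and 0 lower in the baboon (median log2 fold change 0.93), and 20 were higher and 0 lower in the rhesus monkey (median 0.99). BOP1, SBDS and RRP9 were among the 4 with the smallest p in both species. Of the mitochondrial ribosomal proteins, 29 of 71 were higher and 2 lower in the baboon and 29 of 65 higher and 4 lower in the rhesus monkey. Elongation factors and partners were split, with 5 higher and 4 lower of 14 in the baboon and 3 and 2 of 13 in the rhesus monkey. Initiation factors gave 4 higher and 2 lower of 26, and 7 and 4 of 25. Genes of growth signalling to translation gave none of 13 and 1 lower of 10, which was MYC. The study also names members for stem cells. Its primate comparison was of stem cells with other spermatogonia, while the counts here compare germ-like with somatic cells. They therefore do not test its markers. Its primate list was chosen partly on these samples and is not independent evidence of a direction, and its other list came from mouse cells. Of the primate list, 2 were higher and 1 lower of 7 tested in the baboon and 2 were higher of 7 in the rhesus monkey, and of the mouse list 0 were higher and 1 lower of 6, and 0 and 2 of 6. RPL11, RPL18, RPL32 and RPS9 did not pass, with log2 fold changes of -0.07 ± 0.24 (RPL11, baboon only), -0.10 ± 0.22 and -0.23 ± 0.24 (RPL18), 0.24 ± 0.26 and 0.09 ± 0.23 (RPL32), and -0.62 ± 0.23 and -0.24 ± 0.26 (RPS9) in the baboon and the rhesus monkey. Nor did RPL4, RPS28 and RPS29, which had -0.04 ± 0.22, -0.47 ± 0.21 and -0.46 ± 0.45 in the baboon and 0.00 ± 0.27, -0.55 ± 0.29 and -0.32 ± 0.26 in the rhesus monkey. With the animal as a block RPS9, RPS28 and RPS29 passed as lower in the baboon (edgeR adjusted p = 0.000642, 0.00363 and 0.0133).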

How the data were processed

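UMI counts were analysed from 6 single-cell libraries of testis cells. The authors made the deposited counts with Cell Ranger 3.1.0 against Panubis1.0 (baboon) or Mmul_10 (rhesus), and the deposited matrices hold every barcode, without normalization or cell calling. Cells were called with a UMI cutoff (percentile 99 of the top 5000 barcodes, divided by 10) and, from 500 UMIs, by comparison with free RNA (10000 simulations, adjusted p of at most 0.01), with at least 200 genes. Doublets were marked with scrublet at 0.8% per 1000 cells and kept. Libraries were integrated in Seurat 5.3.0 (sctransform 0.4.2, R 4.3.3) on 3000 features, from which 15 baboon and 18 rhesus members were removed, with 30 components and resolution 0.5. Marker lists gave the names of clusters (score of at least 0.4, at least 3 markers). 2 steps of the naming, the filter on ubiquitous markers and the joint name pericyte/peritubular myoid-like, were set after names had been seen. Germ-like cells were clustered again on 10 components.

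Sums per animal and class (at least 20 cells in each animal, or 10 for germ cell clusters) entered 1 quasi-likelihood fit a species (edgeR 4.0.16, TMM, filterByExpr), with Benjamini-Hochberg adjustment over every gene tested. The standard error was the absolute log2 fold change over the square root of F. DESeq2 1.42.0, other scalings, filters and cell sets were alternatives, and the closing section gives their effect. The members and lists were chosen with earlier results of these data known. Genes were named by a rule: stalk members, the 5 members with the most UMIs, paralogues with counterparts, members the study names for stem cells, and in each contrast up to 5 members with the largest change in each direction among those called with 1 direction in both animals, or the 2 with the largest change where none passed (a baboon stroma-like estimate without a usable error was left out). RPS16, RPS20, RPS21, RPS23, RPS26, RPL31, rhesus RPS15A and RPL12 and RPL13 in g3 were named after their values were seen. Some members that the rule names are not reported here. Deviations of the classes of 1 animal correlated across genes (r from 0.0952 to 0.671 over 15 baboon pairs and from 0.0829 to 0.616 over 28 rhesus pairs), and the pairing is by animal. Tested on simulated data, the germ-like contrast recovered 61% (baboon) and 57.5% (rhesus) of 200 genes given a log2 change of 2. Coordinates are from RefSeq of the same builds, and sequences from rhesus RefSeq. Python 3.11.15 with scipy 1.17.1 was used for sums and intervals.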

Additional observations from a re-analysis of the deposited data

How the results depend on the processing

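No named member past the threshold in a class contrast changed direction under an alternative. The split of the baboon germ-like calls did turn, from mostly lower to mostly higher, under the other scalings given with those calls. Estimates that did not pass as reported changed sign for RPLP2 in both species (from -0.23 to 0.60 in the baboon and from -0.05 to 0.51 in the rhesus monkey) and for rhesus RPL22L1 (from -0.37 to 0.59). Over the named members and settings, 732 of 828 results kept their side of the threshold, 58 no longer passed and 38 passed newly. RPL10, RPL23, RPL37 and RPL39L in the baboon and RPL10, RPL22, RPL23, RPL26L1, RPL27A, RPL30, RPL39, RPS23 and RPSA in the rhesus monkey were among the members that passed in germ-like cells under all 17 alternatives run. For RPL39L this adds no support, since it passed the filter on low counts through its germ-like levels. The log2 fold change of baboon RPSA ran from 0.82 to 1.42 and it passed in 16 of 17. Members called in baboon germ-like cells (19) were 31 with DESeq2 (6 higher), 50 without the filter, 56 with the animal as a replicate block, 33 with libraries as samples and 10 with only the class and the sum of all other cells. In the rhesus monkey (25) the last 2 gave 41 and 13. Libraries of 1 animal are not independent samples, so counts with libraries as samples overstate the replication. That setting is 1 of the 17 alternatives. In the Sertoli-like cells of the baboon (0) the counts were 1 with the UMIs of other genes as library size, 7 with DESeq2, 9 without the filter, 16 with the block and 8 with libraries. In stroma-like cells (0) they were 1 with DESeq2, 2 with the block and 1 with libraries, and in endothelial-like cells (1) they were 8, 12 and 4, with 2 without the filter and 0 with the UMIs of the members as library size, with the UMI cutoff alone and with only the class and all other cells. Rhesus Sertoli-like calls (2) were 7 with library size alone, 5 with the UMIs of other genes, 6 with those of the members, 11 with DESeq2, 1 without the filter, 5 with the block, 32 with libraries, 1 at resolution 0.3 and with the members kept in the clustering features, and 0 with only the class and all other cells. Rhesus stroma-like calls (0) were 2 with libraries. Rhesus endothelial-like calls (1) were 0 with the UMI cutoff alone, with cells of at least 1000 UMIs, at resolution 0.3, with the members kept and with only the class and all other cells. Calls in baboon germ cell clusters (13) were 39 with the block and 27 with libraries. Apart from the baboon germ-like calls with the block, the share of all genes called under an alternative is not given here. These counts therefore do not set the members apart from other genes. The causes were not tested. Leaving out germ cell clusters by their Sertoli markers, and libraries from the germ cell clusters, were alternatives chosen after seeing the data.

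Leaving out 1 library at a time gave 0 to 2 calls in baboon germ cell clusters, 16 to 17 in baboon germ-like cells, 1 to 2 in rhesus Sertoli-like cells and 0 to 1 in rhesus endothelial-like cells, and a rhesus germ-like share of 22.6% to 24.4%. Leaving out the only library of an animal left 1 animal, which could be described but not tested. The animal as a block raised counts as given and changed no other count by more than 1.5 times. With 46 and 31 UMIs of RPL10L in germ-like cells, depth limits its comparison within germ cells.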

Other observations

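A small rhesus cluster of 245 cells without a name had the highest share of ribosomal protein UMIs of any cluster in both animals, 41.1% in rhesus monkey 1 (69 cells) and 38.1% in rhesus monkey 2 (176 cells, 34.1% in 2A and 43.2% in 2B). Its leading genes were TAGLN, NPM3, TPD52L1, EEF1A1, ACTA2, PDLIM3, ZNF32, EEF1G, CASP1 and HNRNPH2, with EEF1A1 and EEF1G being elongation factors. It met 2 of 10 stroma markers, and its median of 1255 UMIs per cell lay near that of the stroma-like clusters. A second unnamed cluster of 56 cells, led by LCN2, PTGDS, ITLN1 and KRT19, had 30.6% in the 54 cells of rhesus monkey 2.

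In stroma-like cells of every library the share was higher in cells with more UMIs, which was not tested. From the third of cells with the fewest UMIs to the third with the most it went from 21.4% to 26.1% in 1A, from 22.2% to 26% in 1B, from 16.6% to 20.1% in baboon 2, from 24.3% to 26.9% in rhesus monkey 1, from 26.1% to 29.9% in 2A and from 25.2% to 29% in 2B. In the Sertoli-like cells of rhesus monkey 1 it went from 30.6% through 32.4% to 25.6%.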
